A study of Homo sapiens with 8 samples.

Results

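The transcriptome of HepG2 cells given a miR-552-3p mimic together with a control siRNA was compared with that of HepG2 cells given a negative control mimic and the same control siRNA. HepG2 is a human hepatocellular carcinoma line. The 4 libraries, of 8 in the series, were chosen by their treatment labels and by no measured value. The miR-552-3p group held 2 libraries of cells transfected with 1 nM mimic and 30 nM control siRNA, and the NC group held 2 libraries of cells transfected with 1 nM negative control and 30 nM control siRNA. RNA was taken after 72 h in each group, purified on oligo(dT) and read at 1 end for 50 bases. The other 4 libraries received the same mimic (siIPO8-miR-552-3p) or negative control (siIPO8-NC) with 30 nM siRNA against importin8 in place of the control siRNA, and they serve below to show how far a difference recurs in libraries that do not include NC. The labels do not say that libraries of a group came from separate cultures, and the p-values therefore take in only the variation from library to library, part of which may be technical. The table lists 26716 genes, and 17715 of them passed the filter on low counts over the 8 libraries.

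MicroRNAs are short RNAs that guide Argonaute proteins to matching stretches of messenger RNA, mostly in 3′ UTRs, where pairing with the seed of the microRNA lowers RNA stability and translation. A mimic is a synthetic duplex that supplies the mature strand to the cell, and its effects spread from direct targets to the many genes that those targets control. Importin8 is a nuclear import receptor that also binds Argonaute proteins. The mature strand delivered here is encoded on chromosome 1 (chr1:34669614-34669634, minus strand, GRCh38.p14) and is shown, from RefSeq, with its seed (bases 2 to 8) in capitals because the seed sets which messages it can pair with.
hsa-miR-552-3p: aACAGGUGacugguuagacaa

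The 8 libraries held between 21608563 and 22102373 expected counts each. All 18 HepG2 liver markers were tested, among them ALB at 21535 and 21604 CPM with the mimic, against 27723 and 24491 CPM in NC. COL1A2 and VIM, markers of fibroblasts, were at no more than 1.49 CPM (counts scaled to the library size) in these 4 libraries. Of the markers in the table, 4 of 10 for fibroblasts, 7 of 9 for endothelium and blood, 6 of 8 for intestinal epithelium, 6 of 8 for stomach epithelium and 7 of 9 for kidney tubule passed the filter on low counts, most of them at no more than 2 CPM in these 4 libraries. VIL1, the villin of brush borders listed for intestine, had 188 and 204 CPM with the mimic, against 397 and 382 CPM in NC. Of the 6 intestinal markers tested 1 rose, KRT20, and 1 fell. PGC, which encodes the pepsinogen of the stomach, and CDH16, a cadherin of kidney tubules, were abundant in NC. PECAM1, an adhesion protein of endothelium and platelets, had 26.7 and 28.3 CPM with the mimic, against 68.6 and 72.4 CPM in NC, and AQP6, a kidney aquaporin, had 0 and 0.0942 CPM with the mimic, against 23.8 and 27.1 CPM in NC. Of the fibroblast markers PDGFRB had 4.49 and 5.51 CPM with the mimic, against 18.2 and 12.4 CPM in NC. The part of other cell types in the results was not tested. IPO8, which encodes importin8 and was not targeted in these 4 libraries, had 25.4 and 24.6 CPM in the miR-552-3p libraries, against 34.7 and 33.3 CPM in the NC libraries (log2 fold change -0.44 ± 0.08, adjusted p = 0.00083).

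The miR-552-3p and NC libraries lay at opposite ends of the series, with the siIPO8 groups between them. In a principal component analysis of log2 CPM, with 51.4% of the variance on component 1, the mimic libraries lay at 75.3 and 72.4 and the NC libraries at -88.8 and -94.3 on that component, and the others at 41.1 and 38.3 in siIPO8-miR-552-3p and -19.3 and -24.7 in siIPO8-NC. Over all genes tested both mimic libraries lay beyond all 6 others in 36.5%, and both NC libraries in 45.6%. Genes were called at an adjusted p under 0.05 in edgeR's quasi-likelihood test with Benjamini-Hochberg adjustment over all genes tested, and all adjusted p-values given here come from that test. The SE printed with a log2 fold change is its size divided by the square root of the test's F statistic. Where a group has only a few counts, this SE can be smaller than the counting error. Where a gene is said to rise or fall, or its fold change is given without a p-value, it was called. Of 10341 genes called, both mimic libraries and not the NC libraries lay beyond all 6 others in 3099 (30%), and the NC libraries alone did so in 4335 (41.9%). Both pairs lay beyond the 6 others, on opposite sides, in 2375 genes (23%), and neither did in 532 (5.14%). For genes at which only NC lay beyond the rest, an effect of the mimic and a state peculiar to the NC cells cannot be told apart. Some osmotic response genes, picked after their values were seen, are examples. Of 8 tested 2 were higher and 4 lower, and of these 6 only NC lay beyond the other libraries in 4 and only the mimic in 2. Genes of this kind serve the uptake or synthesis of organic osmolytes and are switched on by hypertonic medium through the factor NFAT5. SLC5A3, the myo-inositol transporter, had 42.8 and 49.3 CPM with the mimic, against 918 and 805 CPM in NC, but 22.2 and 23.2 CPM in siIPO8-miR-552-3p and 21.5 and 25.3 CPM in siIPO8-NC. AKR1B1, the aldose reductase that makes sorbitol, had 82.4 and 76.9 CPM with the mimic, against 1020 and 1038 CPM in NC, but 53.6 and 60.8 CPM in siIPO8-miR-552-3p and 62.8 and 60.0 CPM in siIPO8-NC. Both genes were thus high in NC and low in the 6 other libraries. SLC6A12, the betaine transporter, had 0.458 and 0.471 CPM with the mimic, against 426 and 419 CPM in NC, and 0.625 and 0.237 CPM in siIPO8-miR-552-3p against 3.09 and 3.19 CPM in siIPO8-NC, and also fell with the mimic under importin8 siRNA (-2.85). HSPA4L, a chaperone, rose in both arms (1.37 here and 0.76 under importin8 siRNA), and SGK1, a kinase of ion transport, fell in both (-0.70 and -1.35). NFAT5 itself was not called, at 167 and 192 CPM with the mimic, against 163 and 185 CPM in NC. Of 1468 genes on the lists used below 1282 were tested, and since a member may have passed the filter only through the group in which it is high, counts and medians of a list describe the members tested. Many gene groups below, though not all, are therefore given beside their values in the importin8 siRNA arm, the same mimic contrast without NC. In each gene given below with its values in the 4 libraries, apart from AFP, IGF2 and CCL20, the mimic and NC libraries did not overlap.

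The mimic was accompanied by changes in most expressed genes. At an adjusted p under 0.05, 58.4% of the genes tested were called, 5120 of them higher with the mimic (28.9%) and 5221 lower (29.5%). Of these, 1992 were at least 2-fold higher (11.2%) and 2440 at least 2-fold lower (13.8%), and the median log2 fold change over all genes tested was -0.01. Both libraries of 1 group lay above both of the other in 13912 genes (78.5%). Under importin8 siRNA the same contrast called 31.7% of the genes, 15% higher and 16.7% lower. Counts of list members called, given below, are to be read beside these shares of all genes tested. In bulk samples such as these, fewer cells of a kind and less RNA per cell cannot be told apart.

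**Figure D1:**
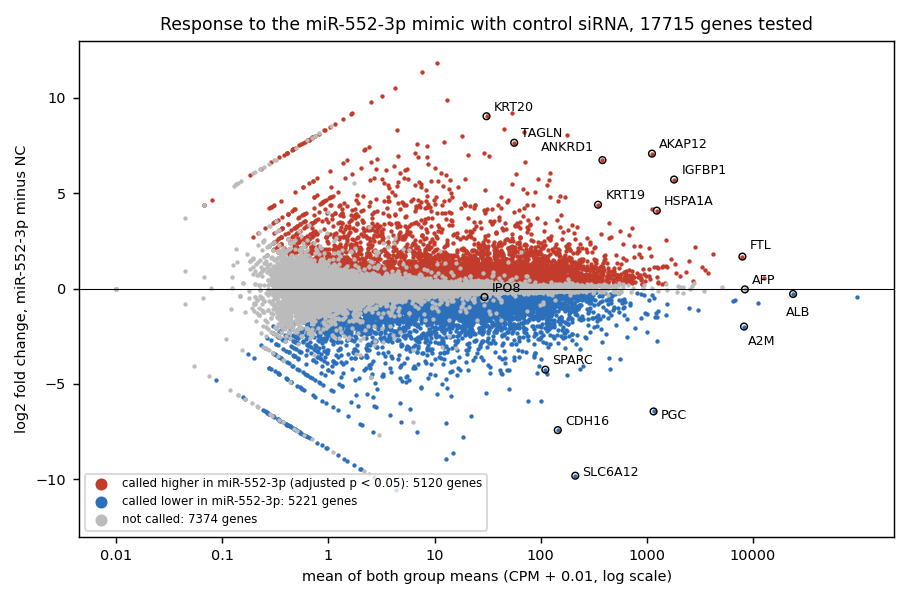
Log2 fold change of each tested gene (miR-552-3p over NC, vertical axis) against its mean level over the 4 libraries (horizontal axis, log scale), with called genes coloured by direction. The 5120 genes called higher and the 5221 called lower lie across levels from about 1 CPM up.

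Among the most abundant transcripts, the mimic libraries held more ferritin, cytoplasmic actin and stress-related messages and less of several plasma proteins. FTL, the ferritin light chain that stores iron, had 12636 and 11577 CPM in the miR-552-3p libraries, against 3912 and 3647 CPM in the NC libraries (log2 fold change 1.68 ± 0.09, adjusted p = 2e-07); it has near-identical processed copies in the genome, with which its reads may be shared. IGFBP1, a secreted binder of insulin-like growth factors, had 3602 and 3483 CPM in the miR-552-3p libraries, against 91.9 and 43 CPM in the NC libraries (log2 fold change 5.72 ± 0.39, adjusted p = 6.3e-05); its NC libraries lay apart from each other, and its SE is large. AKAP12, a scaffold for protein kinases A and C, had 2202 and 2235 CPM in the miR-552-3p libraries, against 17 and 15.9 CPM in the NC libraries (log2 fold change 7.08 ± 0.12, adjusted p = 4e-10). These 3 genes were higher in both mimic libraries than in both NC libraries, and AKAP12 had the largest fold of the 3. HMGA1, an architectural chromatin protein of fetal and tumour cells, had 2693 and 2461 CPM with the mimic, against 451 and 428 CPM in NC (log2 fold change 2.55 ± 0.08). RABEPK, a Rab9 effector, had 4739 and 4551 CPM with the mimic, against 1101 and 970 CPM in NC (log2 fold change 2.17 ± 0.09). ACTG1, cytoplasmic gamma actin, had 6421 and 6591 CPM with the mimic, against 1965 and 1669 CPM in NC (log2 fold change 1.84 ± 0.10). Among the falls, A2M, the broad plasma protease inhibitor alpha-2-macroglobulin, had 3074 and 3536 CPM with the mimic, against 13738 and 12574 CPM in NC (log2 fold change -1.99 ± 0.10); under importin8 siRNA its log2 difference was -0.24 (adjusted p = 0.09). PEBP1, a Raf kinase inhibitor, had 326 and 317 CPM with the mimic, against 2334 and 2052 CPM in NC (log2 fold change -2.77 ± 0.09). AGT, the angiotensin precursor secreted by liver, had 335 and 356 CPM with the mimic, against 1722 and 1622 CPM in NC (log2 fold change -2.27 ± 0.08). PLOD2, a collagen lysyl hydroxylase, had 627 and 648 CPM with the mimic, against 1876 and 1664 CPM in NC (log2 fold change -1.47 ± 0.09), whereas under importin8 siRNA its log2 difference was 0.22 (adjusted p = 0.078). Its fall was called against NC and not between the siIPO8 groups. ALB was just past the threshold (log2 fold change -0.28 ± 0.10, adjusted p = 0.045), a call that was lost under 8 of 17 alternatives, and it was higher under importin8 siRNA (0.45, adjusted p = 0.0085). FN1, fibronectin, rose modestly in both arms, by 0.57 here and 0.64 under importin8 siRNA. The abundant genes not called were led by AFP, the fetal counterpart of albumin, at 8422 and 8099 CPM with the mimic, against 9512 and 7500 CPM in NC (log2 fold change -0.04 ± 0.12, adjusted p = 0.78), and IGF2, a fetal growth factor, had 2425 and 2666 CPM with the mimic, against 2419 and 2676 CPM in NC. Reads of IGF2 and of the overlapping INS-IGF2 readthrough cannot be told apart.

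Transcription factors and feedback inhibitors of the ERK pathway rose together. ERK is the kinase that growth factor receptors activate, and AP-1 factors, made of Fos, Jun and ATF proteins, are among its main nuclear outputs. Of 33 members tested, 28 were called higher and 3 lower (28.9% and 29.5% over all genes tested), with a median log2 fold change of 1.28 (0.41 under importin8 siRNA). Among the AP-1 subunits 11 of 12 rose and 1 fell. FOSL1, the Fra-1 subunit of mesenchymal and tumour cells, had 134 and 139 CPM in the miR-552-3p libraries, against 16.8 and 14.5 CPM in the NC libraries (log2 fold change 3.12 ± 0.09, adjusted p = 2.1e-09). ATF3, the stress-induced subunit, had 95 and 92 CPM with the mimic, against 16.6 and 12.5 CPM in NC (log2 fold change 2.68 ± 0.12). JUN had 367 and 359 CPM with the mimic, against 109 and 79 CPM in NC (log2 fold change 1.95 ± 0.13), while JUND fell by 0.51 on the log2 scale. For FOSL1, ATF3 and JUN, both mimic libraries lay well above both NC libraries. EGR1, an immediate early zinc finger factor, had 135 and 127 CPM with the mimic, against 49.2 and 38.1 CPM in NC (log2 fold change 1.59 ± 0.10), and its difference under importin8 siRNA was 0.24 (adjusted p = 0.095). The feedback inhibitors, which switch ERK signalling off, rose in 10 of 13 and fell in 2. DUSP5, a nuclear ERK phosphatase, had 191 and 180 CPM in the miR-552-3p libraries, against 4.19 and 2.72 CPM in the NC libraries (log2 fold change 5.75 ± 0.20, adjusted p = 1.6e-07). DUSP1, a phosphatase of stress-activated kinases and ERK, had 299 and 271 CPM with the mimic, against 71.1 and 50.6 CPM in NC (log2 fold change 2.23 ± 0.18). SPRY4 rose by 1.00 and SPRY2 fell by 0.65 on the log2 scale. Of the 31 called members, only the mimic lay beyond the 6 other libraries in 9, only NC in 9 and both pairs in 13.

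In the EGF receptor system, some ligands and the inhibitor ERRFI1 rose while the receptors called fell. AREG, the ligand amphiregulin, had 152 and 131 CPM in the miR-552-3p libraries, against 1.4 and 1.4 CPM in the NC libraries (log2 fold change 6.66 ± 0.15, adjusted p = 1.1e-09) and rose by 2.92 under importin8 siRNA. EREG, epiregulin, had 14.4 and 13.2 CPM with the mimic, against 0.18 and 0.0438 CPM in NC (log2 fold change 6.89 ± 0.35). TGFA, transforming growth factor alpha, went the other way, at 20.5 and 19 CPM with the mimic, against 76.7 and 69.2 CPM in NC (log2 fold change -1.88 ± 0.09), so ligands did not move as a group: 3 of 7 rose and 1 fell. ERRFI1, the inducible inhibitor of EGFR kinase, had 1168 and 1211 CPM with the mimic, against 212 and 132 CPM in NC (log2 fold change 2.79 ± 0.22); under importin8 siRNA the difference was 0.16 (adjusted p = 0.61). All of the 3 receptors called fell, of 4 tested. EGFR had 86.7 and 97.4 CPM with the mimic, against 169 and 174 CPM in NC (log2 fold change -0.90 ± 0.07), ERBB2 had 21.6 and 24 CPM with the mimic, against 109 and 146 CPM in NC (log2 fold change -2.48 ± 0.16) and ERBB3 had 78.9 and 84.8 CPM with the mimic, against 235 and 227 CPM in NC. EGFR was not called under importin8 siRNA (-0.05, adjusted p = 0.68).

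Targets of YAP and TEAD, the nuclear end of the Hippo pathway that responds to cell shape and contact, rose strongly against NC but less so between the siIPO8 groups. Of 21 targets tested, 16 were called higher and 1 lower, with a median log2 fold change of 1.69, against 0.22 under importin8 siRNA. ANKRD1, a nuclear ankyrin repeat protein, had 771 and 742 CPM in the miR-552-3p libraries, against 8.19 and 5.92 CPM in the NC libraries (log2 fold change 6.74 ± 0.14, adjusted p = 6.6e-10), and 479 and 452 CPM in siIPO8-miR-552-3p against 211 and 187 CPM in siIPO8-NC. CYR61, a matricellular protein, had 246 and 219 CPM with the mimic, against 4.95 and 3.86 CPM in NC (log2 fold change 5.72 ± 0.16), and 124 and 124 CPM in siIPO8-miR-552-3p against 72.9 and 57.6 CPM in siIPO8-NC. CTGF, the related connective tissue growth factor, had 333 and 316 CPM with the mimic, against 14.9 and 8.72 CPM in NC (log2 fold change 4.78 ± 0.21), but 408 and 430 CPM in siIPO8-miR-552-3p against 534 and 474 CPM in siIPO8-NC (adjusted p = 0.27). CTGF was thus low in NC and lay between 316 and 534 CPM in the 6 other libraries. AXL, a receptor tyrosine kinase, had 135 and 131 CPM with the mimic, against 3.38 and 3.59 CPM in NC (log2 fold change 5.25 ± 0.11) and rose in both arms (2.33 under importin8 siRNA). AMOTL2, a target that also restrains YAP, was the target called lower (log2 fold change -1.27 ± 0.07, adjusted p = 1.1e-07). Among the pathway's own components YAP1 rose by 0.42 and WWTR1, which encodes TAZ, fell by 0.22 on the log2 scale. Both pairs lay beyond the 6 other libraries in 17 of the 27 called members of the whole list.

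Most genes of the actin cytoskeleton that were tested rose as well, as did some keratins, while genes of the pericellular matrix changed in both directions. Of 39 actin and contraction genes tested 28 were higher and 6 lower, with a median log2 fold change of 1.06 (0.46 under importin8 siRNA). FLNA, the actin crosslinker filamin A, had 1372 and 1479 CPM in the miR-552-3p libraries, against 300 and 298 CPM in the NC libraries (log2 fold change 2.25 ± 0.08, adjusted p = 7.4e-09). MYH14, a nonmuscle myosin heavy chain, fell by 1.01 on the log2 scale. Among 22 keratins with a row of counts, 10 passed the filter on low counts, and those 10 were called higher in both arms. Some passed through the mimic group in which they were high, such as KRT12 with 106 and 84 counts with the mimic against 1 and 0 in NC, so nothing about the family is read from that count. KRT19, a keratin of bile duct and progenitor cells, had 676 and 647 CPM in the miR-552-3p libraries, against 35.3 and 27.3 CPM in the NC libraries (log2 fold change 4.40 ± 0.11, adjusted p = 1.6e-09). KRT20, a keratin of intestinal epithelium, had 61.9 and 61.3 CPM with the mimic, against 0.045 and 0.175 CPM in NC (log2 fold change 9.04 ± 0.23), and its NC values are 1 and 4 counts. KRT23 had 301 and 287 CPM with the mimic, against 11.5 and 9.07 CPM in NC (log2 fold change 4.84 ± 0.10). KRT8 and KRT18, the filament pair of hepatocytes, rose by 1.04 and 1.52 on the log2 scale, less than KRT19, KRT20 and KRT23. Both pairs lay beyond the 6 other libraries in 17 of the 34 called actin genes. ANXA2, a calcium-dependent membrane binder, had 311 and 270 CPM with the mimic, against 22.6 and 16.9 CPM in NC (log2 fold change 3.88 ± 0.14), while ANXA13 fell by 6.68 on the log2 scale. Of 11 annexins 5 were higher and 3 lower, and of 13 S100 calcium sensors 9 were higher and 2 lower. Of 20 matrix proteases and inhibitors 11 were higher and 7 lower. MMP3, stromelysin, had 43.2 and 38 CPM with the mimic, against 0.36 and 0.263 CPM in NC (log2 fold change 7.0 ± 0.19). SERPINE2, an inhibitor of thrombin and urokinase, had 175 and 167 CPM with the mimic, against 13.5 and 13.1 CPM in NC (log2 fold change 3.68 ± 0.07). PLAU, urokinase itself, fell by 1.47 here and was higher by 1.21 under importin8 siRNA, so its direction depended on the arm. CLDN1, a tight junction claudin, had 320 and 326 CPM with the mimic, against 40.1 and 37.3 CPM in NC (log2 fold change 3.06 ± 0.07), while CLDN19 fell.

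**Figure D2:**
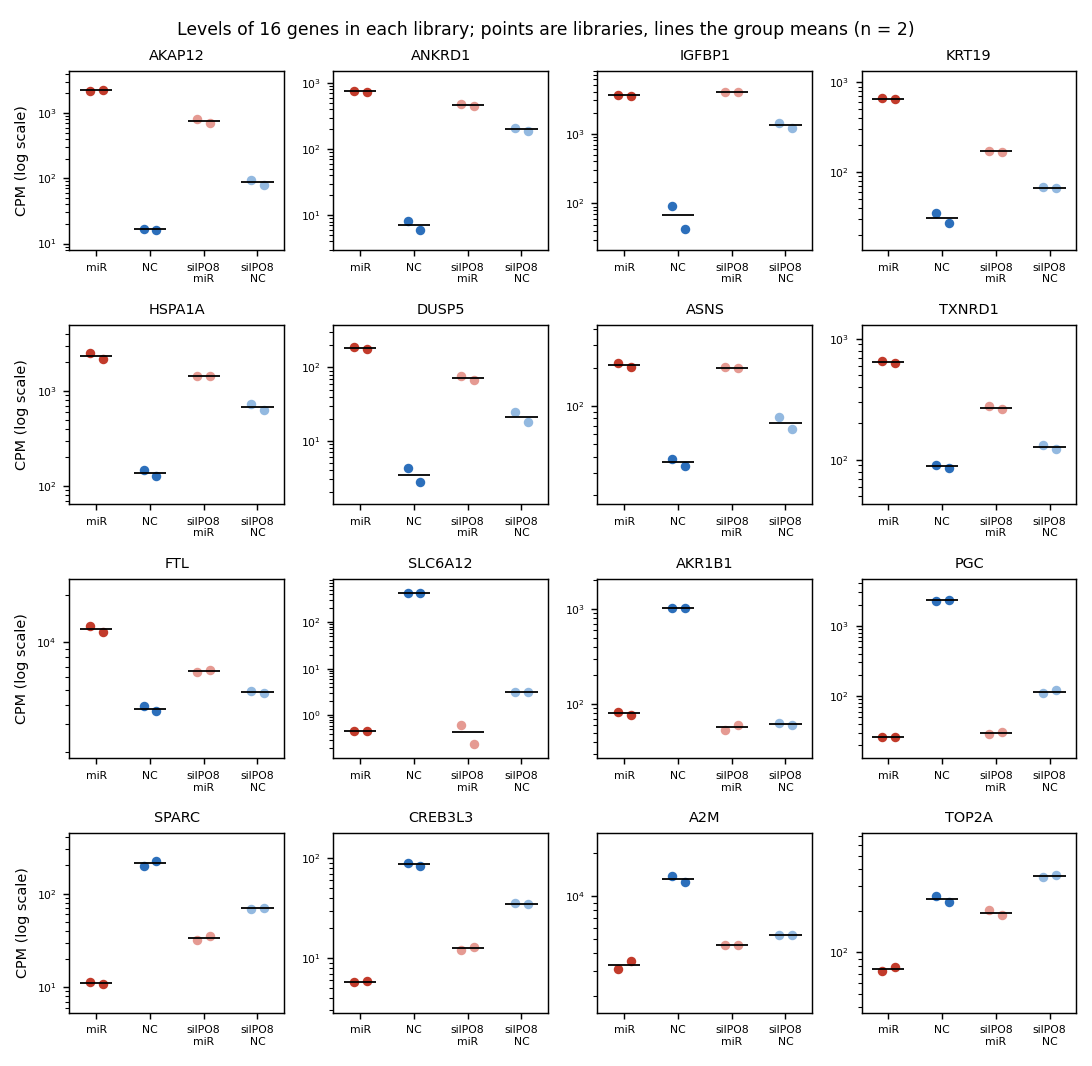
Level of 16 genes in each library (CPM, log scale), with the groups miR-552-3p, NC, siIPO8-miR-552-3p and siIPO8-NC from left to right and 1 point per library. AKAP12, KRT19 and HSPA1A are higher in each mimic group than in its control group, whereas AKR1B1 is high in NC alone (1020 and 1038 CPM).

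Most genes of the integrated stress response rose, and genes of amino acid supply did so in part. In this response, kinases that sense stress or amino acid shortage slow translation and favour the factor ATF4, which with CHOP switches on amino acid synthesis, transport and tRNA charging. Of 20 regulators and targets tested 16 were higher and 2 lower, with a median log2 fold change of 1.46, and under importin8 siRNA 14 were higher and 0 lower. Both pairs lay beyond the 6 other libraries in 10 of the 18 called. DDIT3, which encodes CHOP, had 213 and 187 CPM in the miR-552-3p libraries, against 34.7 and 30.1 CPM in the NC libraries (log2 fold change 2.63 ± 0.10, adjusted p = 1.3e-08). PPP1R15A, the phosphatase subunit GADD34 that reverses the block of translation, had 376 and 343 CPM with the mimic, against 42.5 and 27.5 CPM in NC (log2 fold change 3.36 ± 0.21). GDF15, a secreted stress hormone, had 1723 and 1655 CPM with the mimic, against 417 and 359 CPM in NC (log2 fold change 2.12 ± 0.10). The kinases EIF2AK1 and EIF2AK3 were lower, by 0.49 and 0.27 on the log2 scale. ASNS, asparagine synthetase, had 217 and 204 CPM with the mimic, against 38.3 and 34 CPM in NC (log2 fold change 2.54 ± 0.10). SLC3A2, the heavy chain shared by several amino acid exchangers, had 404 and 369 CPM with the mimic, against 81.4 and 73.4 CPM in NC (log2 fold change 2.32 ± 0.09). ALDH18A1, the first enzyme of proline synthesis, fell, at 129 and 137 CPM with the mimic, against 731 and 656 CPM in NC. Of 27 amino acid transporters 15 were higher and 7 lower, with a median of 0.48 (0.29 under importin8 siRNA). Of 19 genes of serine, asparagine and one-carbon synthesis 11 were higher and 5 lower, with a median of 0.38 (0.14 under importin8 siRNA). Among the enzymes that charge tRNA, 18 of 20 cytosolic members were higher and 1 lower, QARS, which fell by 0.32. YARS, the tyrosyl enzyme, rose by 2.02 and WARS, the tryptophanyl enzyme, by 1.52 on the log2 scale. The mitochondrial synthetases did not share this pattern: 8 of 17 were higher and 6 lower here, and 2 were higher and 9 lower under importin8 siRNA.

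Most chaperones of the endoplasmic reticulum and of the cytosol also rose. Of 22 members of the unfolded protein response, which raises folding capacity of the endoplasmic reticulum, 18 were higher and 2 lower, with a median of 0.95 here and 0.76 under importin8 siRNA, where 17 were higher and 1 lower. The difference between the arms was called for 9 of the 22. Of the 20 called, only the mimic libraries lay beyond the 6 others in 7 and only NC in 5. HSPA5, the reticulum chaperone BiP, had 584 and 476 CPM in the miR-552-3p libraries, against 129 and 106 CPM in the NC libraries (log2 fold change 2.17 ± 0.13, adjusted p = 1.2e-06) and rose by 1.35 under importin8 siRNA. HERPUD1, a member of the degradation machinery, had 484 and 496 CPM with the mimic, against 100 and 90.3 CPM in NC (log2 fold change 2.36 ± 0.09). XBP1, the transcription factor of the IRE1 branch, was lower instead, at 122 and 129 CPM with the mimic, against 254 and 230 CPM in NC (log2 fold change -0.95 ± 0.08); the counts do not separate its spliced form. Of 33 heat shock proteins 23 were higher and 3 lower, with a median of 1.16 (0.43 under importin8 siRNA), and both pairs lay beyond the 6 others in 13 of the 26 called. HSPA1A, the inducible cytosolic HSP70, had 2492 and 2191 CPM with the mimic, against 147 and 128 CPM in NC (log2 fold change 4.09 ± 0.12); reads shared with its near copy HSPA1B may be split between them. DNAJB1, its co-chaperone, had 1061 and 944 CPM with the mimic, against 134 and 112 CPM in NC (log2 fold change 3.02 ± 0.12). SQSTM1, the autophagy receptor p62, had 1273 and 1237 CPM with the mimic, against 289 and 242 CPM in NC (log2 fold change 2.24 ± 0.09), and 12 of 17 autophagy genes were higher and 2 lower, against 12 higher and 0 lower under importin8 siRNA. Of 38 proteasome subunits 24 were higher and 6 lower, but by a median of only 0.34.

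The antioxidant response to NRF2, a factor that KEAP1 holds in check, rose in part. Of 25 members 16 were higher and 7 lower, with a median of 1.12, against 0.20 under importin8 siRNA, and both pairs lay beyond the 6 others in 12 of the 23 called. TXNRD1, thioredoxin reductase, had 653 and 636 CPM in the miR-552-3p libraries, against 90.8 and 85.9 CPM in the NC libraries (log2 fold change 2.87 ± 0.08, adjusted p = 1.8e-09). GCLC, the rate-limiting enzyme of glutathione synthesis, had 311 and 305 CPM with the mimic, against 65.8 and 55.8 CPM in NC (log2 fold change 2.34 ± 0.09) and rose by 1.67 under importin8 siRNA. SLC7A11, the cystine importer, rose by 2.37 on the log2 scale. The classical target NQO1 was lower by 0.36 and AKR1B10 by 0.86, so the list did not move in a single direction. HMOX1, heme oxygenase, was higher by 1.94 here and lower by 0.49 under importin8 siRNA (adjusted p = 0.041). In iron handling, the exporter SLC40A1 (ferroportin) had 103 and 103 CPM with the mimic, against 21.5 and 19.6 CPM in NC (log2 fold change 2.32 ± 0.08) and TFR2, the hepatic transferrin receptor that senses iron load, had 13.3 and 12 CPM with the mimic, against 94.6 and 92.3 CPM in NC (log2 fold change -2.88 ± 0.09). FTH1, the ferritin heavy chain, rose by 0.97 here, and its difference under importin8 siRNA was 0.02 (adjusted p = 0.89).

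Genes of DNA replication and mitosis fell in both arms, and at most of them the mimic libraries rather than NC stood beyond the rest of the series. Of 65 replication and G1/S genes tested 43 were lower and 12 higher, with a median log2 fold change of -0.63, and under importin8 siRNA 46 were lower and 2 higher, with a median of -0.55. Only the mimic libraries lay beyond the 6 others in 43 of the 55 called members (78.2%). Origin licensing genes were lower in 16 of 21 and higher in 4. CDT1, which loads the MCM helicase, had 20.1 and 19.1 CPM in the miR-552-3p libraries, against 41.1 and 35.6 CPM in the NC libraries (log2 fold change -0.97 ± 0.09, adjusted p = 5.4e-06) and fell by 0.99 under importin8 siRNA. MCM3, a helicase subunit, had 51.5 and 53.8 CPM with the mimic, against 193 and 178 CPM in NC (log2 fold change -1.81 ± 0.08). CDC25A, the phosphatase that releases CDK2, fell by 1.66 on the log2 scale. Among polymerases and fork proteins 18 of 22 were lower and 2 higher. POLA2, a subunit of the primase complex, and POLD3, of polymerase delta, fell by 1.55 and 1.49 on the log2 scale, and POLD3 fell by 1.53 in the other arm. Among cell cycle inhibitors CDKN1A, which encodes p21, had 366 and 330 CPM with the mimic, against 98.5 and 91.7 CPM in NC (log2 fold change 1.87 ± 0.09), and CDKN2B, which encodes p15, rose by 2.17 here and 2.04 under importin8 siRNA. Of 39 mitotic genes 27 were lower and 3 higher, with a median of -0.55, against 31 lower and 0 higher and a median of -0.48 under importin8 siRNA. FOXM1, the factor that drives their transcription, had 27.7 and 28.4 CPM with the mimic, against 55.6 and 57.7 CPM in NC (log2 fold change -1.02 ± 0.07). CENPF, a kinetochore protein, fell by 0.98 here and 0.88 in the other arm, and BUB1B, a spindle checkpoint kinase, by 0.70 and 0.75. ESPL1, the separase that parts sister chromatids, fell by 1.73 on the log2 scale, and ECT2, a cytokinesis factor, was among the 3 that rose (0.69). In 27 of the 30 called mitotic genes only the mimic libraries lay beyond the 6 others.

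Transcription factors of hepatocyte identity were mostly lower. Of 24 tested 16 were lower and 4 higher, with a median of -0.76, and under importin8 siRNA 15 were lower and 4 higher. Of the 20 called, only the mimic libraries lay beyond the 6 others in 9 and only NC in 5. CREB3L3, a liver factor of the fasting and lipid response, had 5.72 and 5.94 CPM in the miR-552-3p libraries, against 89.4 and 84.1 CPM in the NC libraries (log2 fold change -3.89 ± 0.08, adjusted p = 6.6e-10). NR5A2, which supports bile acid and pancreas gene programs, had 5.31 and 5.23 CPM with the mimic, against 48.2 and 44.8 CPM in NC (log2 fold change -3.14 ± 0.10). CEBPA, the C/EBP factor of resting hepatocytes, had 28.9 and 29.3 CPM with the mimic, against 76.1 and 88.6 CPM in NC (log2 fold change -1.50 ± 0.08), whereas CEBPB, the C/EBP factor of injury and the acute phase, had 277 and 273 CPM with the mimic, against 73.7 and 66.1 CPM in NC (log2 fold change 1.98 ± 0.07). GATA4 had 33.9 and 31.9 CPM with the mimic, against 154 and 171 CPM in NC (log2 fold change -2.30 ± 0.08). HNF4A, a master factor of the hepatocyte, fell less, by 0.41 on the log2 scale, and FOXA1 was not called (0.01). Of 11 SOX factors tested 7 were lower and 2 higher, with a median of -1.41 (-0.19 under importin8 siRNA). Among them SOX4, which marks plastic and tumour epithelium, had 156 and 170 CPM with the mimic, against 8.1 and 7.32 CPM in NC (log2 fold change 4.40 ± 0.09). SOX9, a bile duct and progenitor factor, had 166 and 182 CPM with the mimic, against 384 and 410 CPM in NC (log2 fold change -1.19 ± 0.08). Of 42 nuclear receptors 18 were lower and 9 higher. The 3 PPAR receptors of fatty acids diverged: PPARD had 147 and 142 CPM with the mimic, against 25.8 and 25.8 CPM in NC, PPARG had 117 and 113 CPM with the mimic, against 38.5 and 30.3 CPM in NC and PPARA had 39.3 and 46.1 CPM with the mimic, against 122 and 134 CPM in NC, each called. Of 31 cytochrome P450 genes 16 were lower and 5 higher, and only NC lay beyond the 6 other libraries in 10 of the 21 called. CYP3A5, a drug-metabolising enzyme, had 4.17 and 4.38 CPM with the mimic, against 48.3 and 52.7 CPM in NC (log2 fold change -3.56 ± 0.10), and CYP24A1, which inactivates vitamin D, had 140 and 145 CPM with the mimic, against 7.11 and 6.44 CPM in NC (log2 fold change 4.39 ± 0.09). EPHX1, microsomal epoxide hydrolase, had 53.4 and 50.7 CPM with the mimic, against 235 and 239 CPM in NC (log2 fold change -2.19 ± 0.08). ABCC2, the canalicular exporter of conjugates, had 1298 and 1350 CPM with the mimic, against 427 and 419 CPM in NC (log2 fold change 1.65 ± 0.07), and ABCB1, the drug exporter P-glycoprotein, had 213 and 216 CPM with the mimic, against 105 and 94.6 CPM in NC (log2 fold change 1.10 ± 0.08).

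Targets and feedback inhibitors of Wnt signalling, which HepG2 cells run through a truncated beta-catenin, were lower in 11 of 18 and higher in 5, and lower in 13 and higher in 1 under importin8 siRNA. Only NC lay beyond the 6 other libraries in 8 of the 16 called. LGR5, a receptor of R-spondin, had 41.7 and 50.8 CPM in the miR-552-3p libraries, against 182 and 182 CPM in the NC libraries (log2 fold change -1.98 ± 0.09, adjusted p = 6.8e-08) and fell by 1.16 under importin8 siRNA. NKD1, an inducible inhibitor of the pathway, had 150 and 171 CPM with the mimic, against 401 and 384 CPM in NC (log2 fold change -1.29 ± 0.07). AXIN2, the scaffold most used as a readout of the pathway, fell by 0.49 on the log2 scale. DKK1, a secreted antagonist, had 511 and 465 CPM with the mimic, against 98.6 and 79.2 CPM in NC (log2 fold change 2.46 ± 0.11) and rose by 1.12 in the other arm. Of 13 SMAD factors and targets of the TGF-beta family 10 were higher and 2 lower. HAMP, the iron hormone hepcidin that BMP signals induce, rose by 2.79 on the log2 scale. ID3, an inhibitor of differentiation, rose by 2.11 here, and its difference under importin8 siRNA was -0.14 (adjusted p = 0.31). TGFBR3, the co-receptor betaglycan, had 83.7 and 104 CPM with the mimic, against 672 and 646 CPM in NC (log2 fold change -2.81 ± 0.10).

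Secreted plasma proteins diverged rather than falling as a whole. Of 26 coagulation genes 14 were lower and 8 higher, of 26 complement genes 14 were lower and 6 higher, and of 26 carriers and acute phase proteins 17 were lower and 5 higher, with medians of -0.45, -0.55 and -0.62. Only NC lay beyond the 6 other libraries in 8 of 22 called coagulation genes, 9 of 20 complement genes and 7 of 22 carriers. All 3 fibrinogen chains, which assemble into 1 clotting protein, were among the risers. FGA had 463 and 485 CPM in the miR-552-3p libraries, against 86.9 and 64.7 CPM in the NC libraries (log2 fold change 2.64 ± 0.12, adjusted p = 7.8e-08), FGB had 268 and 281 CPM with the mimic, against 34.1 and 23.6 CPM in NC and FGG had 409 and 390 CPM with the mimic, against 162 and 126 CPM in NC. FGB also rose under importin8 siRNA (1.08), where FGA and FGG were not called (0.26 and 0.02, adjusted p = 0.12 and 0.92). SERPINF2, the inhibitor of plasmin that breaks fibrin down, had 127 and 126 CPM with the mimic, against 510 and 506 CPM in NC (log2 fold change -2.0 ± 0.06). F5, coagulation factor V, had 168 and 188 CPM with the mimic, against 468 and 516 CPM in NC (log2 fold change -1.47 ± 0.08). C3, the central complement protein, had 1829 and 1978 CPM with the mimic, against 4214 and 4112 CPM in NC (log2 fold change -1.13 ± 0.08), and C5, which seeds the lytic complex, had 180 and 195 CPM with the mimic, against 52.9 and 40 CPM in NC (log2 fold change 2.01 ± 0.12). CD55, a membrane inhibitor of complement, had 107 and 99.9 CPM with the mimic, against 12 and 9.03 CPM in NC (log2 fold change 3.30 ± 0.15). SERPINA6, which carries cortisol, had 26.8 and 30.7 CPM with the mimic, against 484 and 459 CPM in NC (log2 fold change -4.04 ± 0.08). TTR, which carries thyroid hormone, had 57 and 54 CPM with the mimic, against 323 and 232 CPM in NC (log2 fold change -2.32 ± 0.14). SERPINA3, an acute phase protease inhibitor, was lower by 1.17 here and higher by 0.93 under importin8 siRNA. The carriers as a list had a median of -0.06 in that arm.

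Chemokines, cytokines and NF-kB feedback genes changed in both directions, with 14 of 34 higher and 10 lower (28.9% and 29.5% over all genes tested). CXCL8, the neutrophil chemokine interleukin 8, had 184 and 157 CPM in the miR-552-3p libraries, against 5.67 and 4.38 CPM in the NC libraries (log2 fold change 5.08 ± 0.13, adjusted p = 3.6e-09). IL11 had 37.7 and 35.3 CPM with the mimic, against 1.98 and 1.58 CPM in NC (log2 fold change 4.36 ± 0.14), and LIF, a cytokine of the same family, had 85.5 and 83.8 CPM with the mimic, against 10.6 and 8.94 CPM in NC (log2 fold change 3.12 ± 0.10). CX3CL1, the membrane-bound chemokine fractalkine, had 12.3 and 16.5 CPM with the mimic, against 332 and 342 CPM in NC (log2 fold change -4.55 ± 0.13). These 4 moved the same way under importin8 siRNA, by 2.0, 1.76, 1.2 and -1.80 on the log2 scale. NFKBIA, the inhibitor that NF-kB induces and that holds it in the cytoplasm, had 78.1 and 77.7 CPM with the mimic, against 461 and 436 CPM in NC (log2 fold change -2.52 ± 0.07). CCL20, a chemokine of epithelium and liver, was not called, at 472 and 458 CPM with the mimic, against 682 and 386 CPM in NC, with the NC libraries far apart. In insulin signalling IRS1, the docking protein, had 128 and 143 CPM with the mimic, against 35.1 and 43.5 CPM in NC (log2 fold change 1.79 ± 0.10), and INSR, the insulin receptor, had 49.6 and 54.9 CPM with the mimic, against 112 and 117 CPM in NC (log2 fold change -1.13 ± 0.07). PIK3R1, the regulatory subunit of PI3 kinase, had 14.1 and 17.4 CPM with the mimic, against 54.9 and 58.6 CPM in NC (log2 fold change -1.85 ± 0.11). Metallothioneins, which bind zinc and copper, diverged: MT2A had 679 and 551 CPM with the mimic, against 371 and 305 CPM in NC (log2 fold change 0.86 ± 0.12) and MT1F had 4.39 and 3.63 CPM with the mimic, against 54.9 and 52.3 CPM in NC (log2 fold change -3.74 ± 0.12). Of 25 genes of the hypoxia response 11 were higher and 6 lower, among them SLC2A3, a glucose transporter, which had 502 and 530 CPM with the mimic, against 157 and 81.8 CPM in NC (log2 fold change 2.11 ± 0.30). Among cell death genes, all 4 called of 5 survival members of the BCL2 family rose, among them MCL1 (1.05) and BCL2L1 (1.06); of the killing members PMAIP1 rose by 3.12 and BCL2L11 fell by 1.76 on the log2 scale.

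**Figure D3:**
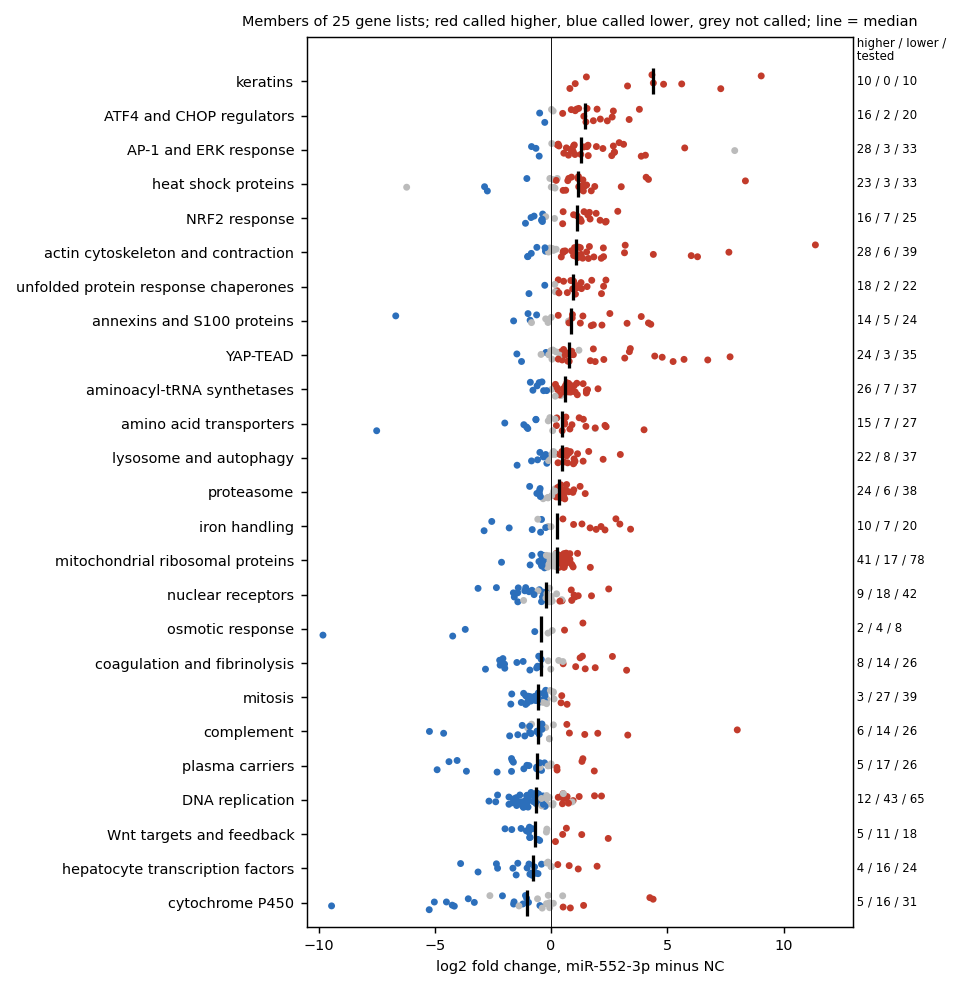
Log2 fold change (miR-552-3p over NC, horizontal axis) of each tested member of 25 gene lists (rows), with the list median marked and the counts called higher and lower of those tested at the right. The keratins that passed the filter lie right of 0, DNA replication and mitosis lie left of 0 (-0.63 and -0.55), and most lists hold members on both sides.

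The steepest falls included PGC, of stomach, and CDH16, of kidney, which were abundant in NC. The stomach markers did not fall as a group, with 1 of 6 tested higher and 1 lower. Of 7 kidney tubule markers 2 were higher and 4 lower, each of the 4 at least 2-fold. Their median log2 fold change was -2.77, against -0.01 under importin8 siRNA. In 5 of the 6 called kidney markers only NC lay beyond the 6 other libraries. PGC had 26.6 and 26 CPM in the miR-552-3p libraries, against 2264 and 2310 CPM in the NC libraries (log2 fold change -6.44 ± 0.10, adjusted p = 1.7e-10), and 28.6 and 31.3 CPM in siIPO8-miR-552-3p against 110 and 120 CPM in siIPO8-NC. CDH16 had 1.51 and 1.84 CPM with the mimic, against 274 and 303 CPM in NC (log2 fold change -7.42 ± 0.14), and 1.97 and 1.66 CPM in siIPO8-miR-552-3p against 7.0 and 8.81 CPM in siIPO8-NC. Both fell with the mimic in both arms, and both were far higher in NC than in siIPO8-NC. ETNPPL, a phospholyase of ethanolamine phosphate, had 3.48 and 3.2 CPM with the mimic, against 202 and 197 CPM in NC (log2 fold change -5.90 ± 0.09) and was not called in the other arm (0.28, adjusted p = 0.18). HID1, a protein of secretory granule formation, had 9.8 and 9.71 CPM with the mimic, against 222 and 215 CPM in NC (log2 fold change -4.49 ± 0.10) and was higher by 1.15 there. AGXT, a peroxisomal aminotransferase of hepatocytes, had 4.81 and 5.09 CPM with the mimic, against 95.5 and 95 CPM in NC (log2 fold change -4.27 ± 0.09) and fell by 1.74 there. The steepest rises among abundant genes included GPRC5A, an orphan receptor induced by retinoic acid, at 245 and 242 CPM with the mimic, against 2.97 and 4.21 CPM in NC (log2 fold change 6.08 ± 0.12), and GPAT3, an enzyme of glycerolipid synthesis, at 121 and 112 CPM with the mimic, against 2.12 and 1.49 CPM in NC (log2 fold change 6.01 ± 0.14). Both also rose in the other arm.

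Noncoding genes changed in both directions as well. Of 2196 long noncoding RNAs tested 15.7% were called higher and 20.9% lower, against 31.1% and 30.7% of 15161 protein-coding genes. Called and at least 2-fold were 247 higher and 329 lower of the long noncoding RNAs, against 1713 and 2061 of the protein-coding genes. Calls depend on the number of counts, which was not matched between the kinds, so the shares do not compare their responses. LUCAT1, a stress-induced noncoding RNA, had 106 and 104 CPM in the miR-552-3p libraries, against 2.39 and 2.19 CPM in the NC libraries (log2 fold change 5.51 ± 0.10, adjusted p = 4e-10). LINC01564 had 18.1 and 16.5 CPM with the mimic, against 0.225 and 0.131 CPM in NC (log2 fold change 6.56 ± 0.25). RNF144A-AS1 fell, at 0.183 and 0.848 CPM with the mimic, against 8.55 and 9.47 CPM in NC (log2 fold change -4.12 ± 0.51). CLMAT3 fell by 4.05 on the log2 scale, close to SPARC, which it overlaps in the genome and which had 11.4 and 10.7 CPM with the mimic, against 199 and 222 CPM in NC (log2 fold change -4.25 ± 0.09). Whether counting used strand is not stated in the sources used here, so reads of CLMAT3 and SPARC, like those of other antisense pairs, cannot be told apart. Between these 2 groups, 13 genes had 0 counts in both NC libraries and at least 30 in both mimic libraries, among them MMP1, a collagenase that had counts in both siIPO8 groups, and 11 the reverse, among them CYP17A1, a steroid hydroxylase, and SFRP5, a secreted Wnt inhibitor. A count of 0 allows up to 3 counts, or 0.131 to 0.141 CPM, for counting error only. Over the autosomes the medians ran from -0.19 (chromosome 19) and -0.17 (chromosome 16) to 0.11 (chromosome 4) and 0.18 (chromosome 18, where 40.2% of genes were called higher and 23.4% lower).

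Genes that could pair with the seed of miR-552-3p had slightly lower medians than genes that could not. 3′ UTRs of GENCODE 29 were searched on the sense strand for CACCTGT, the complement of the seed, for CACCTGTA, which adds the base opposite the first of the microRNA (8mer), and for ACCTGTA (7mer-A1, counted where the longer ones were absent). Among 13434 genes matched to a 3′ UTR of at least 50 bases, 1038 held an 8mer and had a median log2 fold change of -0.06, with 29.8% called higher and 35.7% lower. The 10410 with none had a median of 0.04, with 34% called higher and 30.9% lower. Medians were -0.08 for the 1294 genes whose best match was CACCTGT without the added base and -0.07 for the 692 with ACCTGTA only. The class with the longest match was thus not the lowest. Under importin8 siRNA the medians were -0.08 with an 8mer and 0.00 with none. Genes with matches have longer 3′ UTRs (a median of 3415 bases with an 8mer, against 803 with none), and the medians were therefore also taken within classes of length. Within 2000 to 4000 bases they were -0.14 with a match to bases 2 to 8 (742 genes) and 0.08 with none (1588 genes). The gap was smaller within 1000 to 2000 bases, at -0.04 (481 genes) and 0.05 (2335 genes), and within 500 to 1000 bases, at -0.12 (227 genes) and 0.00 (2292 genes).

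The following sites come from 3′ UTRs (GENCODE 29) of 4 genes that fell, with the match to bases 2 to 8 in capitals. They were chosen after the values were seen, to show what the matches look like.
KLB, base 514 of 2850: gacagtggCACCTGTaatcccag
KLB, base 1111 of 2850: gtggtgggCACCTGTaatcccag
CLDN19, base 1866 of 1993: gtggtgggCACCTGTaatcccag
SPARC, base 1270 of 2475: cacacacaCACCTGTacacacac
NKD1, base 2541 of 15468: aagctccaCACCTGTcaggattc
NKD1, base 14525 of 15468: tgtactgtCACCTGTggcctgga
The sites of KLB and CLDN19 share a stretch typical of Alu repeats, the commonest mobile elements of the human genome, whereas those of SPARC and NKD1 do not. KLB, the co-receptor of the bile acid hormone FGF19, had 23.9 and 24.4 CPM in the miR-552-3p libraries, against 436 and 448 CPM in the NC libraries (log2 fold change -4.20 ± 0.07, adjusted p = 4e-10), and CLDN19, a claudin of kidney tubules, had 1.74 and 1.13 CPM with the mimic, against 10.8 and 14 CPM in NC (log2 fold change -3.10 ± 0.25). Of 1300 8mers in the 3′ UTRs tested, 437 (33.6%) lay in the stretch CACCTGTAATCCCAG. Genes with matches inside that stretch only had a median of -0.14 (212 genes), and genes with matches outside it only had a median of -0.06 (1958 genes). Genes with no match but with the neighbouring Alu stretch GCCTGTAATCCCAG, in which the base that completes the seed match is changed, had a median of -0.04 (392 genes). Within 3′ UTRs of 1000 to 2000 bases, however, the last kind was about as low (-0.21, 100 genes) as matches inside the stretch (-0.25, 42 genes), so at that length the Alu stretch and the seed match cannot be told apart. Between 2000 and 4000 bases the medians were -0.17 (77 genes) inside the stretch, -0.13 (633 genes) outside it and -0.02 (138 genes) with the changed base. Genes with at least 2 8mers had a median of -0.02 (181 genes), and genes with at least 2 matches to bases 2 to 8 a median of -0.08 (537 genes). In promoters (RefSeq, GRCh38.p14, 250 bases before to 50 after the start, CACCTGT on either strand), a match was found in 4.11% of 35116 promoters, and the 392 tested genes with a match had a median of -0.06, against 0.01 for 12290 with none.

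**Figure D4:**
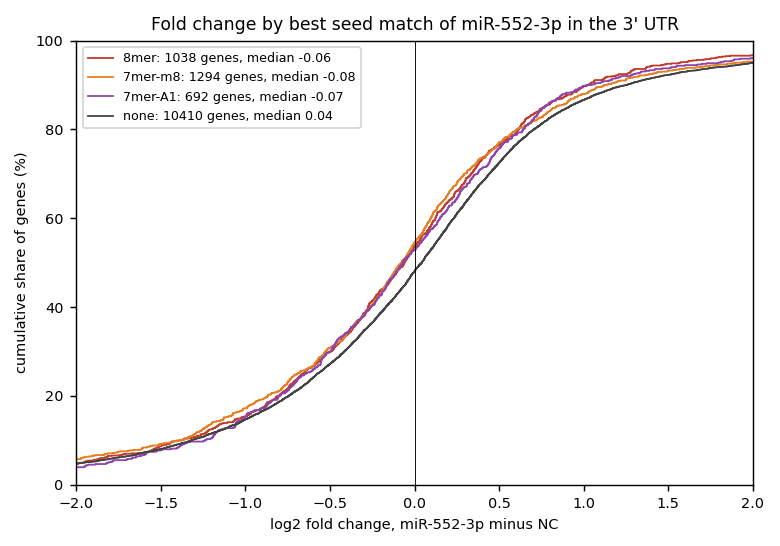
Cumulative share of genes (vertical axis) by log2 fold change (miR-552-3p over NC, horizontal axis) for the best seed match in the 3′ UTR, with 1 line for each of 4 classes. The lines of genes with a match lie slightly left of the line of genes with none, and their medians are -0.06 for the 8mer and 0.04 for none.

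With importin8 lowered, fewer genes were called with the mimic, and those called in both arms mostly had the same direction. IPO8 had 7.65 and 8.30 CPM in siIPO8-miR-552-3p and 11.3 and 11.5 CPM in siIPO8-NC, and fell with the mimic by a similar amount in both arms (-0.44 here, -0.52 there, adjusted p of the difference = 0.70). Of the 5120 genes called higher with control siRNA, 2262 (44.2%) were called higher under importin8 siRNA and 94 (1.8%) lower. Of the 5221 called lower, 2406 (46.1%) were called lower there and 93 (1.8%) higher. Their median log2 fold changes were 0.80 and -0.94 with control siRNA, against 0.28 and -0.37 under importin8 siRNA. Choosing genes by their call with control siRNA favours larger values in that arm. Over all genes tested, without that choice, the median absolute log2 fold change was 0.59 with control siRNA and 0.32 under importin8 siRNA. Across the genes tested Pearson's r between the 2 contrasts was 0.51; they share no library, but genes are not independent replicates. The difference between the effects was itself called for 31.3% of genes, and for 55.3% of those called higher and 45.7% of those called lower. The last 2 shares also rest on genes chosen by their call with control siRNA. HSPA1A, at 1430 and 1423 CPM in siIPO8-miR-552-3p and 725 and 633 CPM in siIPO8-NC, rose in both arms, but by 3.02 less under importin8 siRNA on the log2 scale (adjusted p of the difference = 8.7e-07). A2M showed a fall with control siRNA alone, and the difference between its effects was 1.75 (adjusted p = 1.5e-05). FN1 and CDT1 are examples of similar size in both arms, with differences of 0.07 (adjusted p = 0.77) for FN1 and -0.03 (adjusted p = 0.9) for CDT1. The mimic libraries lay beyond the 6 others in 52.9% of the genes called and the NC libraries in 64.9%, and a smaller effect under importin8 siRNA and a shift of NC cannot be told apart.

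**Figure D5:**
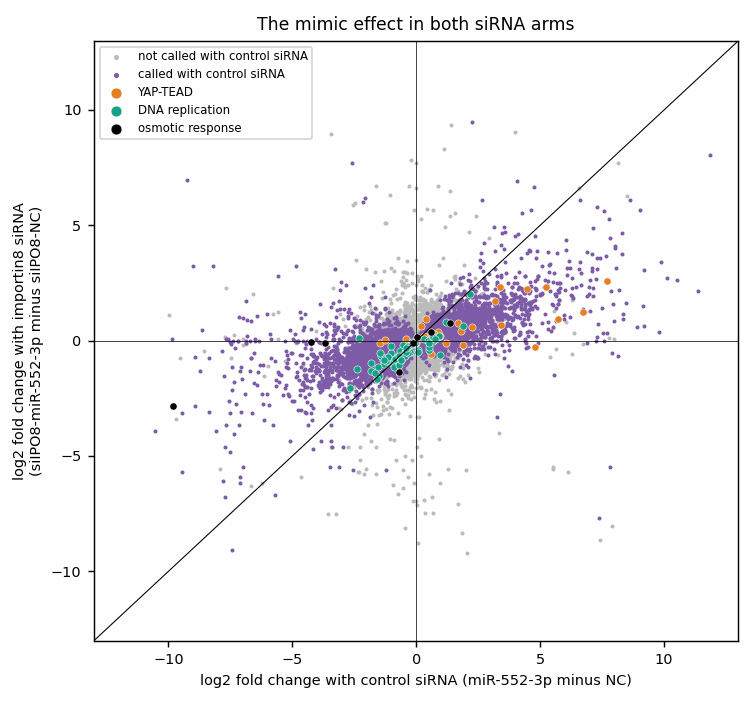
Log2 fold change with control siRNA (miR-552-3p over NC, horizontal axis) against that under importin8 siRNA (siIPO8-miR-552-3p over siIPO8-NC, vertical axis), 1 point per gene, with YAP-TEAD, DNA replication and osmotic response genes coloured. Most DNA replication genes lie near the diagonal below 0, whereas SLC5A3 of the osmotic response lies far left (-4.23) at a vertical position near 0 (-0.05).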

How the data were processed

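HepG2 RNA was sequenced in 8 libraries, per the labels' protocols as poly(A) RNA with single-end reads of 50 bases. Per the submitters' processing notes, HISAT2 2.0.4, Bowtie2 2.2.5, RSEM 1.2.8 and GRCh38.p12 were used, with no role stated. The authors deposited expected counts (estimated reads per gene, not normalized) and a second value per library that has the scale of FPKM; the deposited FPKM were used for no value here. The table's column names are abbreviations that the labels do not spell out: a 5 before the replicate number was read as miR-552-3p and SI as importin8 siRNA. This reading is an inference from the column names and from the authors' title of the deposited table that holds the 4 control siRNA columns alone, and every value rests on it. After rounding the expected counts, low genes were removed with filterByExpr over 4 groups, and the rest were scaled by TMM and tested in R 4.3.3 with edgeR 4.0.16 (quasi-likelihood, robust, contrast miR-552-3p minus NC within a fit of 8 libraries, Benjamini-Hochberg over 17715 genes). Log2 fold changes are fitted, their SE is derived from the F statistic as given above, and CPM use the TMM-scaled library sizes. On simulated counts for this contrast (17715 genes), 77% of 100 genes changed by 1 on the log2 scale and 96% of 100 changed by 2 were called, with 10 unchanged genes called. The changed genes were drawn from those with a mean of at least 50 counts, and all others were left unchanged. These shares therefore do not cover genes with fewer counts, or a response as broad as here, where 58.4% were called. The paired libraries of a group were distinct (chi-square over its degrees of freedom 7.71 for miR-552-3p and 10.58 for NC, where 1 is sampling noise). Alternatives were DESeq2 1.42.0, limma 3.58.1 (voom), RLE factors, filters, fewer libraries and a replicate block. The members and the 56 gene lists (1468 genes, of which 1282 were tested and 154 had too few counts) were chosen with earlier results of these data known, so lists are described by counts and medians and are not tested. Named genes were IPO8, the 12 largest rises and falls in mean CPM, the 12 largest log2 rises and falls at a mean of at least 1000 counts, the 6 largest of each among long noncoding RNAs at 100 counts, up to 5 called members per list at 30 counts, list members with a role of their own, and the 5 most abundant steady genes. KLB and the sites shown were chosen after their values were seen. With 2 libraries per group, intervals across samples rest on a spread pooled over 4 groups. A few genes and sites that these rules choose are not reported here.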

Additional observations from a re-analysis of the deposited data

Results flagged for a closer look

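For 22 of the most changed abundant genes, the mimic effect under importin8 siRNA differed from that with control siRNA, by the interaction term in edgeR at an adjusted p under 0.05 (31.3% of all genes tested passed). The genes were picked by their change with control siRNA, which favours a smaller effect in the other arm. Among all genes called with control siRNA, 55.3% of those higher and 45.7% of those lower passed. Differences are log2, importin8 siRNA arm minus control siRNA arm, so a negative value means a lower log2 fold change with importin8 lowered. Among genes that rose, the differences were -4.12 for IGFBP1, -3.93 for AKAP12, -3.02 for HSPA1A, -1.89 for HMGA1, -1.24 for FTL, -1.17 for ACTG1, -0.94 for FTH1, -0.91 for ACTB, -0.79 for RABEPK and -0.52 for GAPDH. Among genes that fell, they were 4.50 for PGC, 2.08 for PEBP1, 1.75 for A2M, 1.69 for PLOD2, 1.48 for AGT, 0.96 for LYZ, 0.95 for C3, 0.90 for AHSG, 0.84 for APOA1, 0.80 for APOB, 0.73 for ALB and 0.53 for SERPINA1. FN1, chosen by the same rule, did not pass, and neither did IPO8, which was named on its own and not for the size of its change. Most of these genes changed less under importin8 siRNA in the same direction, though not all were called there. ALB was called lower with control siRNA (-0.28) and higher under importin8 siRNA (0.45, adjusted p = 0.0085 in edgeR). PLOD2 and APOB, at 0.22 and 0.05 there, and ACTB, FTH1, GAPDH, A2M, SERPINA1, C3 and AHSG were not called under importin8 siRNA. In 52.9% of all genes called with control siRNA the mimic libraries lay beyond the 6 others and in 64.9% the NC libraries did, and the part of that in these differences was not tested.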

How the results depend on the processing

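The counts of genes called kept within 1.5 times under 16 of 17 alternatives, between 8600 (DESeq2) and 10577 (limma-voom), with 49.0% to 50.8% of the calls higher. Against a fold of 1.5 in place of no change (edgeR glmTreat), the genes called with the mimic numbered 5031 (47.8% higher), with 2404 genes called higher with the mimic and 2627 genes called lower with the mimic, which follows from the stricter null. DESeq2 kept 82.1% of the calls in the same direction and the fit of the 4 control siRNA libraries alone 93%. Leaving out each library in turn gave 8887 to 10180 genes called, 4462 to 5097 higher and 4425 to 5087 lower. The replicate block gave 10424 calls and kept 98.4%; same-numbered libraries share only a number (r of their deviations 0.043 between NC and miR-552-3p across genes). The seed matches gave a median difference of -0.11 (with minus without a match), and from -0.13 (without NC replicate 1, past the spread of mimic replicates; the cause was not tested) to -0.10 with a library left out. Of 290 genes named by the rule, 264 kept their call under each of the 17 alternatives that tested them, and 0 reversed. The filter at a mean of at least 50 counts covered 273 of the 290. Of 1904 counts of list members called, 1785 kept within 1.5 times. ALB lost its call under 8, with adjusted p from 0.07 to 0.16 when a mimic or siIPO8 library was left out, and AFP was called lower without NC replicate 2 (-0.21, adjusted p = 0.04). Depth limits genes near the floor of 3 counts.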

Other observations

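Adhesion and clock genes, not described above, changed in both directions. Over all genes tested 28.9% were called higher and 29.5% lower. Of 20 integrins tested 7 were called higher and 3 lower. ITGA5, the fibronectin receptor chain, had 28.4 and 28.2 CPM in the miR-552-3p libraries, against 1.04 and 0.964 CPM in the NC libraries (log2 fold change 4.82 ± 0.16, adjusted p = 6.4e-09), and ITGA10, a collagen receptor chain, had 1.1 and 1.13 CPM with the mimic, against 15.8 and 18.6 CPM in NC (log2 fold change -3.94 ± 0.20). Both moved the same way under importin8 siRNA, by 2.23 and -1.78 on the log2 scale. ITGB1, the beta chain shared by most of them, was not called, at 118 and 87.9 CPM with the mimic, against 41 and 13.1 CPM in NC, and the NC libraries lay far apart. Of 22 laminins and collagens 8 were higher and 6 lower. COL7A1, the collagen of anchoring fibrils, had 81.7 and 82.4 CPM with the mimic, against 12.3 and 14.7 CPM in NC (log2 fold change 2.60 ± 0.09). COL2A1, the collagen of cartilage, had 1.65 and 1.88 CPM with the mimic, against 28.1 and 34.7 CPM in NC (log2 fold change -4.15 ± 0.15).

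Of 21 clock genes 11 were higher and 9 lower. ARNTL2, a partner of CLOCK, had 64.9 and 58.6 CPM in the miR-552-3p libraries, against 15.9 and 15.6 CPM in the NC libraries (log2 fold change 1.97 ± 0.10, adjusted p = 1.3e-07), and the repressors BHLHE40 and NFIL3 rose by 1.08 and 1.18 on the log2 scale. ARNTL, which encodes BMAL1, had 5.31 and 6.93 CPM with the mimic, against 15.3 and 11.3 CPM in NC (log2 fold change -1.12 ± 0.18). The output factors of the PAR bZIP family, DBP, TEF and HLF, were all lower, by 2.35, 0.84 and 0.65 on the log2 scale, and each also fell under importin8 siRNA (-0.96, -0.49 and -0.26). Of 14 Krüppel-like factors 9 were higher and 1 lower, among them KLF6 at 283 and 283 CPM with the mimic, against 127 and 106 CPM in NC (log2 fold change 1.28 ± 0.09). Of 78 mitochondrial ribosomal proteins 41 were higher and 17 lower, by a median of only 0.26 (0.01 under importin8 siRNA), and in 38 of the 58 called only the NC libraries lay beyond the 6 others.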
